A study of Mus musculus with 12 samples.

Results

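Genes of the sperm flagellum and of the axoneme, the microtubule core of flagella and motile cilia, were followed in sorted spermatogonia and in whole testis RNA on Agilent 1-colour mouse arrays. The genes were taken by name from the annotation on the arrays: the families Dnah, Dnai, Tekt, Odf, Catsper, Spag, Tssk and Rsph, and the single genes Akap3, Akap4 and Smcp. The rule found 60 of 55681 probes, for 47 of 36315 genes. No Dnah or Dnai name was among them, because the arrays carry the axonemal dyneins under the older names Dnahc and Dnaic, and these are given apart near the end. GFRα1+ spermatogonia were the EGFP+ cells of mice with EGFP knocked in at Gfra1. NGN3+ and KIT+ spermatogonia were the EGFP+/KIT- and EGFP+/KIT+ cells of transgenic Ngn3-EGFP mice, in which the fluorescent protein lasts beyond the activity of its promoter. Whole testes came from wild-type littermates of the knock-in mice. All mice were C57BL/6 and aged 10 to 11 weeks, and each group had 3 arrays. A GFRα1+ or KIT+ sample came from 1 mouse, an NGN3+ sample was pooled from 2 mice, and a sorted sample held 10000 to 20000 cells.

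The flagellum is assembled by haploid spermatids, after meiosis. Tektins are filament proteins of the doublet microtubules, radial spokes and the central pair regulate the dynein motors, outer dense fibres and a fibrous sheath stiffen the tail, and CatSper is the calcium channel of its principal piece. TSSK proteins are testis-specific kinases of spermatids. In the mouse the RFX factors are known to bind X-box sites of ciliary genes, and CREM, which is active in spermatids, binds cyclic AMP response elements.

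Promoter sequences from 250 bases before to 50 after the start site (RefSeq, GRCm38.p6) were at hand for 36 of the 47 genes. The core of the X-box, GTTGCC on either strand, lay in the promoters of 9 of the 36 genes (25.0%), against 14.1% of all 27025 genes in the table, and the longer form GTTGCCNNG in 6 of 36, against 5.74%. The core of the cyclic AMP response element, TGACGT on either strand, lay in 3 of 36, against 8.37%, and the full palindrome TGACGTCA, which contains it, in 2 of 36, against 2.03%. The sequences below show such matches in 6 members as examples, with the matched letters in capitals. These genes stood at similar shares of the whole testes level in the results that follow, but so did most members, with or without a match. Other members with a match are not shown. A match describes these letters only.
Odf3, chr7:140847831-140847876, plus strand: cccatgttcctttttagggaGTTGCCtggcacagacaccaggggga
Spag16, chr1:69826839-69826884, plus strand: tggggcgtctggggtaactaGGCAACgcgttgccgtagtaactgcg
Tekt1, chr11:72361883-72361917, minus strand: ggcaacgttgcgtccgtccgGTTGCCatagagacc
Tekt2, chr4:126325759-126325804, minus strand: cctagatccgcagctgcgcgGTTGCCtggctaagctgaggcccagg
Spag4, chr2:156065156-156065201, plus strand: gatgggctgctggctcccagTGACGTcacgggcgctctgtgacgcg
Spag6 (Spag6l in RefSeq), chr16:16829364-16829392, minus strand: agccttccccactctggccgTGACGTcac
In Spag16 another core, on the other strand, follows the capitals after 2 bases. In Tekt1 another core, also on the other strand, opens the stretch shown. In Spag4 and Spag6 the capitals open the full palindrome.

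Levels are given as log2 of the processed signal minus the 75th percentile of the array, so that 0 is that percentile. A spot counts as well above background by the scanner software's own flag. Of the 47 genes, every GFRα1+ array measured 31 well above background, every NGN3+ array 45, every KIT+ array 45 and every whole testes array 44, while 10 were well above background on none of the GFRα1+ arrays. Spag11a and Spag11b, which encode secreted defensin-like proteins of the epididymis, were not well above background on any of the 12 arrays and were not tested. Over all probes, 50.2% to 50.9% were well above background on GFRα1+ arrays, 59.5% to 65.1% on NGN3+ arrays, 54.9% to 62.0% on KIT+ arrays and 54.9% to 57.7% on whole testes. Among 20 marker genes of spermatogonia, 20 of 20 tested were higher in GFRα1+ cells than in whole testes, against 49.9% of all genes tested. In NGN3+ cells 18 of 19 were higher (against 44.1%), and in KIT+ cells 14 of 18 (against 43.3%). In KIT+ cells 3 of the 18 were lower than in whole testes. Spiked-in control RNA stood 3.40 to 4.29 above the 75th percentile on GFRα1+ arrays, 1.68 to 1.88 on NGN3+ arrays, 1.62 to 1.72 on KIT+ arrays and 3.18 to 3.77 on whole testes arrays (log2 levels).

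**Figure D1:**
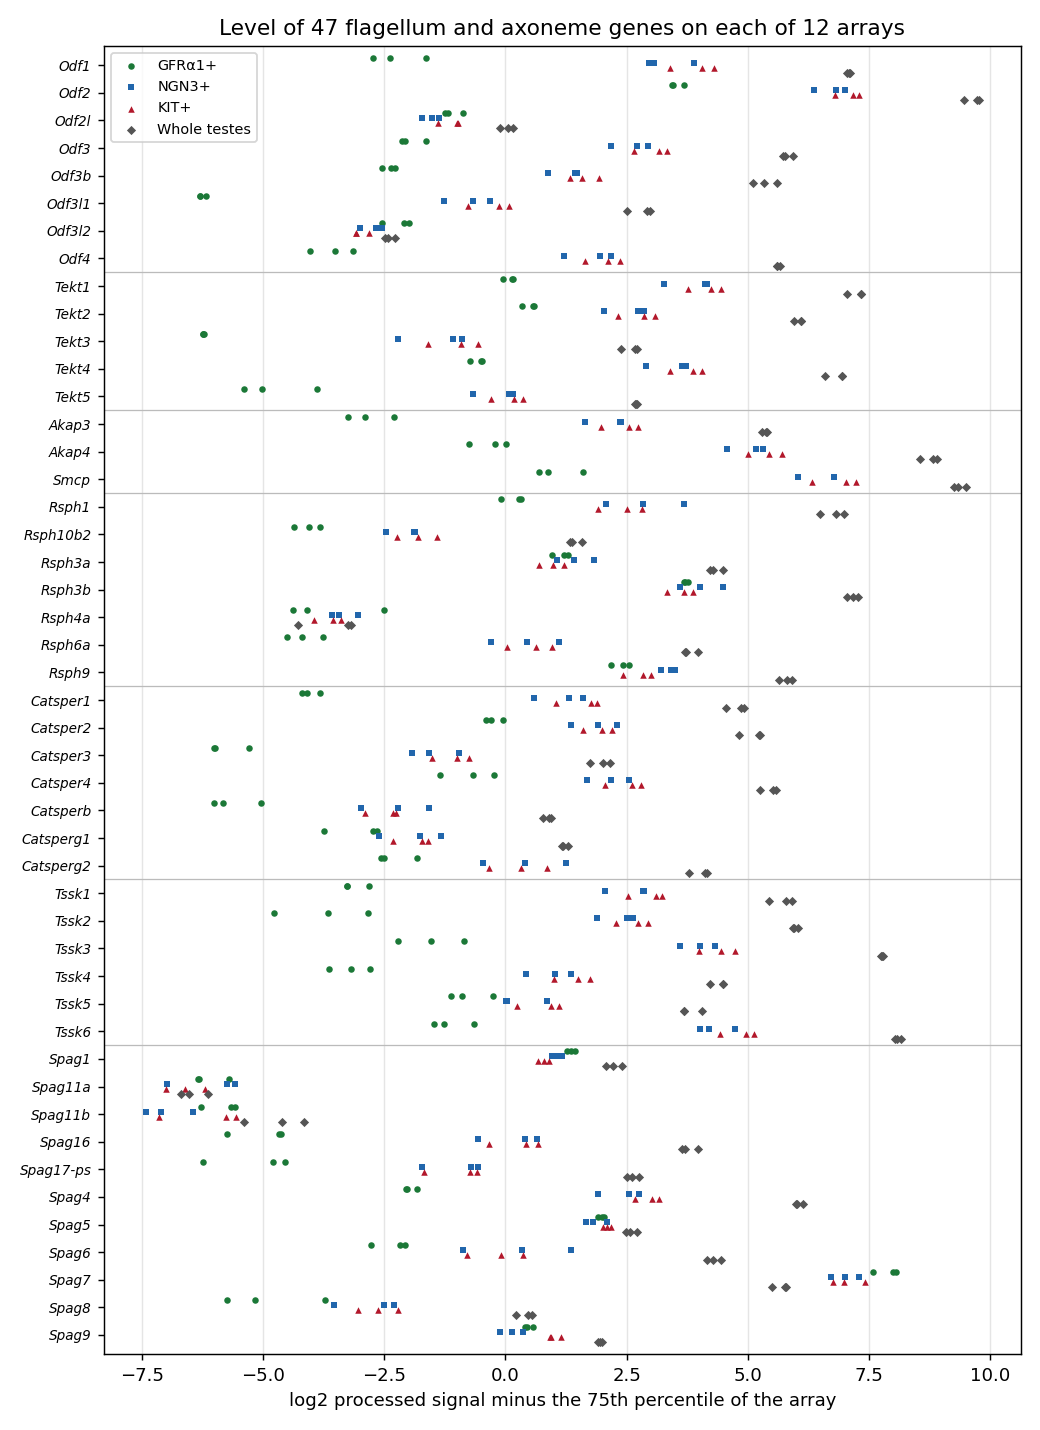
Level of each of the 47 genes on every array (log2 processed signal minus the 75th percentile of the array, horizontal axis), with 3 points per group and genes grouped by family. For most genes the NGN3+ and KIT+ points lie together, between GFRα1+ cells on the left and whole testes on the right, and Spag7 is the gene whose sorted-cell points all lie above whole testes.

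Flagellum genes were detected in NGN3+ and KIT+ cells at low shares of the whole testes level, and most of these shares lay close together from gene to gene. In NGN3+ cells the median share of the whole testes level was 9.52% over 45 genes tested, and the central part of the genes, between the quartiles, lay from 8.07% to 11.8%. In KIT+ cells the median was 11.7%, with quartiles of 9.68% and 14.8%. In GFRα1+ cells the median share was 0.642% over 44 genes, with quartiles of 0.290% and 2.90%, or a median of 0.704% when the 8 genes below background there were set to their upper bound. Over all genes tested the quartiles were 28.1% and 385% in GFRα1+ cells (median 131%), 32.8% and 291% in NGN3+ cells (median 109%) and 30.1% and 286% in KIT+ cells (median 104%). In RNA of bulk samples, fewer cells of a type and less RNA per cell cannot be told apart.

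In the fit with limma over the 12 arrays (Benjamini-Hochberg adjusted p under 0.05), 42 of 45 genes were lower in NGN3+ cells than in whole testes (93.3%, against 39.6% of all 25353 genes tested) and 1 was higher (2.22%, against 44.1%). In KIT+ cells 43 of 45 were lower (95.6%, against 41.6% of 24704 genes) and 1 was higher (against 43.3%). In GFRα1+ cells 42 of 44 were lower (95.5%, against 37.5% of 24196 genes) and 1 was higher (against 49.9%). Only 31 of these 44 were well above background on every GFRα1+ array. The others passed the filter through whole testes alone, which favours a lower call. Of those 31 genes, 29 were lower and 1 higher, against 5096 and 10446 of all 17889 genes filtered in this way. Their median log2 ratio was −6.33, against −7.28 over the 44 genes. Levels did not overlap, and were lower in the sorted cells, for 43 of 45 genes in NGN3+ cells, 43 of 45 in KIT+ cells and 42 of 44 in GFRα1+ cells. Overlap was not counted over all genes, so these counts do not set the members apart from other genes. Scaled to the spiked-in RNA instead of the percentile, which gave a median log2 ratio of all genes of 1.92 for NGN3+ and 1.93 for KIT+ cells in place of 0.13 and 0.05, NGN3+ cells had 4 genes above whole testes and 37 below, and KIT+ cells had 6 above and 35 below. The median share was then 0.511% in GFRα1+, 32.9% in NGN3+ and 43.2% in KIT+ cells. Under that scaling Spag5, Odf2l and Spag1 in both NGN3+ and KIT+ cells, and Spag9 and Odf3l2 in KIT+ cells, stood above whole testes instead of below.

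**Figure D2:**
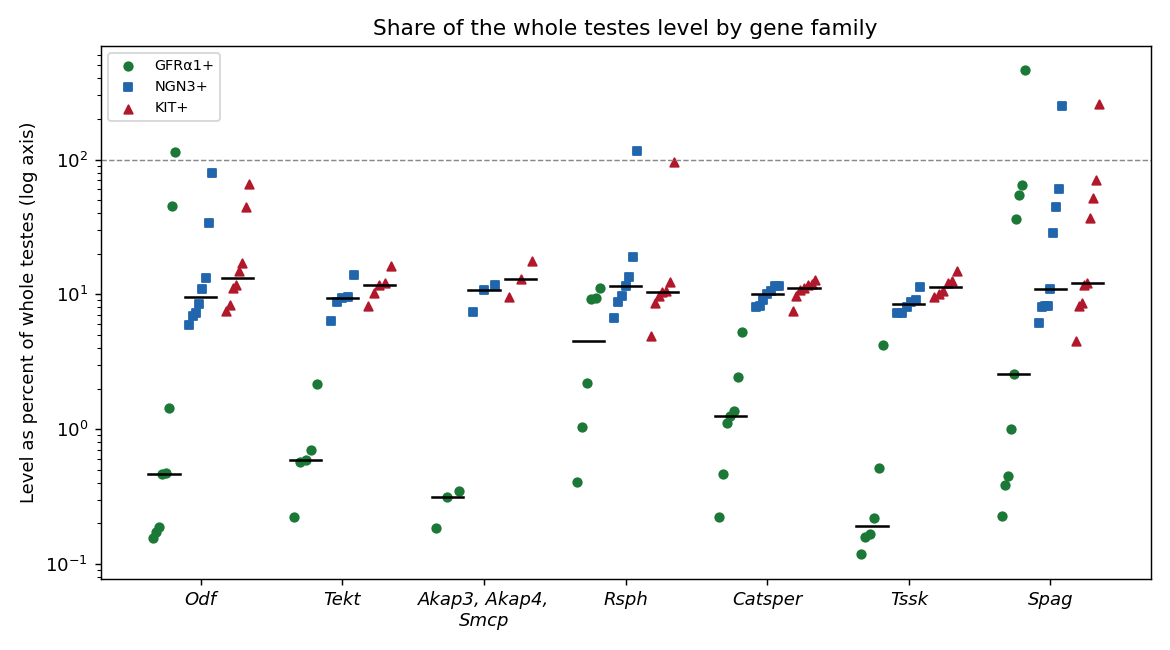
Level of each gene in GFRα1+, NGN3+ and KIT+ cells as a percentage of its whole testes level (vertical log axis), by gene family on the horizontal axis, with black bars at the family medians and a dashed line at 100%. NGN3+ medians lie between 8.42% and 11.5% and KIT+ medians between 10.5% and 13.2% in every family, while GFRα1+ family medians run from 0.192% to 4.49%, the last over the genes tested.

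Among outer dense fibre genes, 7 of 8 were lower in NGN3+ cells than in whole testes. Odf1, which encodes a main protein of the fibres, stood at −2.38, −2.74 and −1.64 in GFRα1+ cells, 2.96, 3.89 and 3.07 in NGN3+ cells, 4.30, 3.39 and 4.06 in KIT+ cells, and 7.11, 7.06 and 7.09 in whole testes. The groups were apart except for NGN3+ and KIT+ cells, which overlapped. Its share of the whole testes level was 0.154% in GFRα1+ cells, 7.28% in NGN3+ cells (95% interval 4.41% to 12%) and 11.1% in KIT+ cells. Odf3b had the lowest NGN3+ share of the family, 5.92% (4.33% to 8.08%), with levels of 0.88, 1.43 and 1.48 in NGN3+ cells, against 5.11, 5.33 and 5.60 in whole testes. Odf3l2 had the highest, 79.3% (61.2% to 103%), and it was dim throughout. It stood at −2.09, −1.99 and −2.54 in GFRα1+ cells, −2.54, −2.99 and −2.67 in NGN3+ cells, −3.08, −2.81 and −3.08 in KIT+ cells, and −2.48, −2.28 and −2.43 in whole testes. Its NGN3+ level was not called different from whole testes (log2 ratio −0.34, limma adjusted p = 0.086), and its KIT+ share was 66.3%. The KIT+ call against whole testes was lost with slide as a block (log2 ratio −0.01, adjusted p = 0.977 from limma). Odf2l, a relative of Odf2 that encodes a centriolar protein, was also outside the common range, at 45.4% in GFRα1+, 33.6% in NGN3+ and 44.8% in KIT+ cells.

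All 5 tektin genes were lower in NGN3+ cells than in whole testes, with shares from 6.34% for Tekt3 to 13.9% for Tekt5. Tekt3 stood at −2.21, −1.07 and −0.90 in NGN3+ cells, −0.57, −1.60 and −0.91 in KIT+ cells, and 2.38, 2.71 and 2.67 in whole testes, and it was not well above background on any GFRα1+ array. Its GFRα1+ share was thus at most 0.466% of whole testes. Tekt5 stood at −0.68, 0.16 and 0.08 in NGN3+ cells, 0.36, −0.30 and 0.17 in KIT+ cells, and 2.72, 2.67 and 2.70 in whole testes, and its GFRα1+ share was at most 0.609%. All NGN3+ and KIT+ arrays measured both genes above background. Tekt2 was the tektin with the highest GFRα1+ share, 2.14%, and it was well above background on all 3 GFRα1+ arrays.

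The scaffold genes of the fibrous sheath and the midpiece gene followed the same order of groups. Akap4, which encodes the main anchoring protein of the sheath, stood at −0.22, −0.75 and 0.00 in GFRα1+ cells, 4.56, 5.31 and 5.17 in NGN3+ cells, 5.70, 5.0 and 5.44 in KIT+ cells, and 8.55, 8.83 and 8.89 in whole testes. Akap3, its partner in the sheath, stood at −2.31, −3.25 and −2.91 in GFRα1+ cells, 1.64, 2.37 and 2.38 in NGN3+ cells, 2.73, 1.97 and 2.55 in KIT+ cells, and 5.29, 5.39 and 5.37 in whole testes. Smcp, which encodes a cysteine-rich protein of the sperm mitochondria, stood at 0.87, 0.69 and 1.60 in GFRα1+ cells, 6.04, 6.77 and 6.04 in NGN3+ cells, 7.23, 6.32 and 7.02 in KIT+ cells, and 9.26, 9.49 and 9.34 in whole testes. In each gene only NGN3+ and KIT+ cells overlapped. The GFRα1+ shares were 0.185% for Akap4, 0.347% for Akap3 and 0.315% for Smcp, the NGN3+ shares 7.46%, 11% and 11.8%, and the KIT+ shares 9.60%, 13.1% and 17.6%.

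Radial spoke genes had the highest GFRα1+ median share of the 7 groups of genes, 4.49%. Of 7 genes, 6 were lower in NGN3+ cells than in whole testes. Rsph1, a spoke head gene, had the lowest NGN3+ share, 6.68% (3.83% to 11.7%), with levels of 0.32, 0.28 and −0.09 in GFRα1+ cells, 2.07, 2.84 and 3.68 in NGN3+ cells, 2.83, 1.90 and 2.51 in KIT+ cells, and 6.49, 6.99 and 6.82 in whole testes. Rsph3a and Rsph3b, which encode a protein of the spoke stalk, had NGN3+ shares of 13.5% and 11.5%, against GFRα1+ shares of 11.1% and 9.21%. These 2 genes are near copies, and how far their probes also bind the other transcript was not tested. Rsph4a, whose human counterpart is needed for motile cilia of the airways, was close to background. It stood at −4.09, −4.37 and −2.51 in GFRα1+ cells, −3.44, −3.04 and −3.58 in NGN3+ cells, −3.39, −3.94 and −3.56 in KIT+ cells, and −3.19, −3.24 and −4.28 in whole testes, with overlapping groups. Only 1 of the 3 GFRα1+ arrays and 2 of the 3 whole testes arrays measured it above background. Its NGN3+ share of 116% had an interval of 58.2% to 232%. Rsph6a, the testis form of that spoke head protein, had an NGN3+ share of 9.64% and a GFRα1+ share of 0.405%. Only 1 of the 3 GFRα1+ arrays measured Rsph6a above background, so its GFRα1+ share is uncertain.

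All 7 CatSper genes were lower in NGN3+ cells than in whole testes, at 8.07% to 11.5% by the brighter probe of each gene. The ends of that range were a pair of close copies, Catsperg2 and Catsperg1, which encode forms of an accessory subunit, and cross-binding of their probes was not tested. Catsperg2 stood at −2.57, −1.83 and −2.51 in GFRα1+ cells, −0.46, 0.40 and 1.24 in NGN3+ cells, 0.86, −0.34 and 0.32 in KIT+ cells, and 3.79, 4.16 and 4.12 in whole testes. Catsperg1 stood at −3.74, −2.65 and −2.74 in GFRα1+ cells, −2.61, −1.76 and −1.34 in NGN3+ cells, −1.61, −2.33 and −1.71 in KIT+ cells, and 1.18, 1.29 and 1.18 in whole testes. Their GFRα1+ shares were 1.25% for Catsperg2 and 5.21% for Catsperg1. The NGN3+ over GFRα1+ log2 ratio of Catsperg1 was 1.14 ± 0.39 (SE, limma adjusted p = 0.034), and it did not pass on the second slide alone (0.84, adjusted p = 0.208) or without GFRα1+ replicate 1 (0.107), NGN3+ replicate 2 (0.097) or NGN3+ replicate 3 (0.118). The pore subunit genes Catsper1 to Catsper4 had NGN3+ shares of 8.18%, 10.5%, 9.03% and 10.1%.

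All 6 Tssk genes were lower in NGN3+ cells than in whole testes. Tssk1 had the highest NGN3+ share, 11.4%, with levels of −3.27, −3.26 and −2.82 in GFRα1+ cells, 2.06, 2.83 and 2.85 in NGN3+ cells, 3.23, 2.53 and 3.11 in KIT+ cells, and 5.44, 5.79 and 5.91 in whole testes. Tssk3 had the lowest, 7.25%, with levels of −1.53, −2.23 and −0.86 in GFRα1+ cells, 3.61, 4.32 and 4.01 in NGN3+ cells, 4.73, 3.98 and 4.45 in KIT+ cells, and 7.76, 7.74 and 7.80 in whole testes. GFRα1+ shares were below 1% for 5 of the 6 genes, and the exception was Tssk5, at 4.24%.

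The Spag genes, named for sperm-associated antigens, fell into flagellar and other members. Spag6, Spag16 and Spag17 (Spag17-ps on the arrays), which encode proteins of the central pair, had NGN3+ shares of 6.16%, 8.17% and 8.14%. Spag6 had the lowest of the family and a wide spread among NGN3+ arrays. It stood at −2.07, −2.18 and −2.77 in GFRα1+ cells, −0.88, 0.35 and 1.36 in NGN3+ cells, 0.36, −0.79 and −0.09 in KIT+ cells, and 4.17, 4.45 and 4.28 in whole testes. Spag4, a SUN-domain gene of the spermatid nuclear envelope, had a share of 8.0%. In contrast, Spag7, which encodes an R3H-domain protein, was higher in sorted cells. It stood at 8.0, 8.07 and 7.59 in GFRα1+ cells, 7.30, 6.73 and 7.0 in NGN3+ cells, 6.75, 7.43 and 6.99 in KIT+ cells, and 5.50, 5.76 and 5.79 in whole testes. Every sorted-cell array was above every whole testes array, and the NGN3+ over whole testes log2 ratio was 1.33 ± 0.21 (SE, limma adjusted p = 0.00011). Spag5, which encodes astrin of the mitotic spindle, stood at 1.90, 2.04 and 1.99 in GFRα1+ cells, 1.82, 1.67 and 2.10 in NGN3+ cells, 2.0, 2.19 and 2.09 in KIT+ cells, and 2.50, 2.72 and 2.57 in whole testes, with shares of 65.1% in GFRα1+, 60.2% in NGN3+ and 70.6% in KIT+ cells. With slide as a block its calls against whole testes were lost in NGN3+ cells (adjusted p = 0.0555 from limma) and KIT+ cells (0.185), and the GFRα1+ call was lost on the first slide alone (0.0506). Spag9, which encodes a JNK scaffold protein, stood at 0.57, 0.41 and 0.45 in GFRα1+ cells, −0.11, 0.14 and 0.36 in NGN3+ cells, 0.92, 0.95 and 1.14 in KIT+ cells, and 1.99, 1.92 and 1.94 in whole testes. Its KIT+ share was 52.0%, against an NGN3+ share of 28.4%. Spag1, a gene for the cytoplasmic assembly of dynein arms, had shares of 54.4% in GFRα1+, 44.5% in NGN3+ and 36.7% in KIT+ cells.

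Between the 2 undifferentiated fractions, most flagellum genes stood higher in the NGN3+ cells. In the limma fit over the 9 sorted-cell arrays, 36 of 45 genes were higher (80.0%, against 20.2% of all 23808 genes tested) and 4 were lower (8.89%, against 36.2%). Every NGN3+ array measured all 45 above background, but every GFRα1+ array only 31 of them. The others passed the filter through NGN3+ cells alone, which favours a higher call. Of those 31 genes, 23 were higher and 5 lower, against 2649 and 8822 of all 19476 genes filtered in this way. The median log2 ratio was 3.65, a 12.6-fold difference, against −0.19 over all genes. It was the same with the 8 genes below background in GFRα1+ cells at their bound, where each stayed on its side of the median. Under normexp background correction the median was lower, 2.05, against −0.23 over all genes. Over the 31 genes well above background on every array of both groups it was 2.70, against −0.29. The 36 higher genes were apart between the groups, with no overlap of arrays, which was not counted over all genes. Higher in NGN3+ cells were 5 of 5 tektins, 7 of 7 CatSper genes, 6 of 6 Tssk genes, 6 of 8 Odf genes, 4 of 7 radial spoke genes and 5 of 9 Spag genes, with Akap3, Akap4 and Smcp. Tssk2, well above background on 2 of the 3 GFRα1+ arrays, had a fitted ratio of 6.10 ± 0.44 (SE, adjusted p = 9.4e-06). Odf1 had a ratio of 5.56 ± 0.36, Akap4 of 5.34 ± 0.27, Smcp of 5.23 ± 0.33 and Akap3 of 4.95 ± 0.31. Genes below background in GFRα1+ cells have lower bounds only, so that the order of the highest ratios is not fixed. Spag16 was at least 30.2-fold higher, Tekt5 at least 22.9-fold, Odf3l1 at least 21.2-fold and Tekt3 at least 13.6-fold, and the other 4 at least 3.67-fold to 15.2-fold. Scaled to the spiked-in RNA, the count was 45 higher and 0 lower, with a median log2 ratio of 1.93 over all genes. On the second slide alone, where 1 GFRα1+ array lay beside the NGN3+ arrays, it was 33 higher and 0 lower, with a median of 3.69, and a block for slide gave 33 higher and 2 lower.

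**Figure D3:**
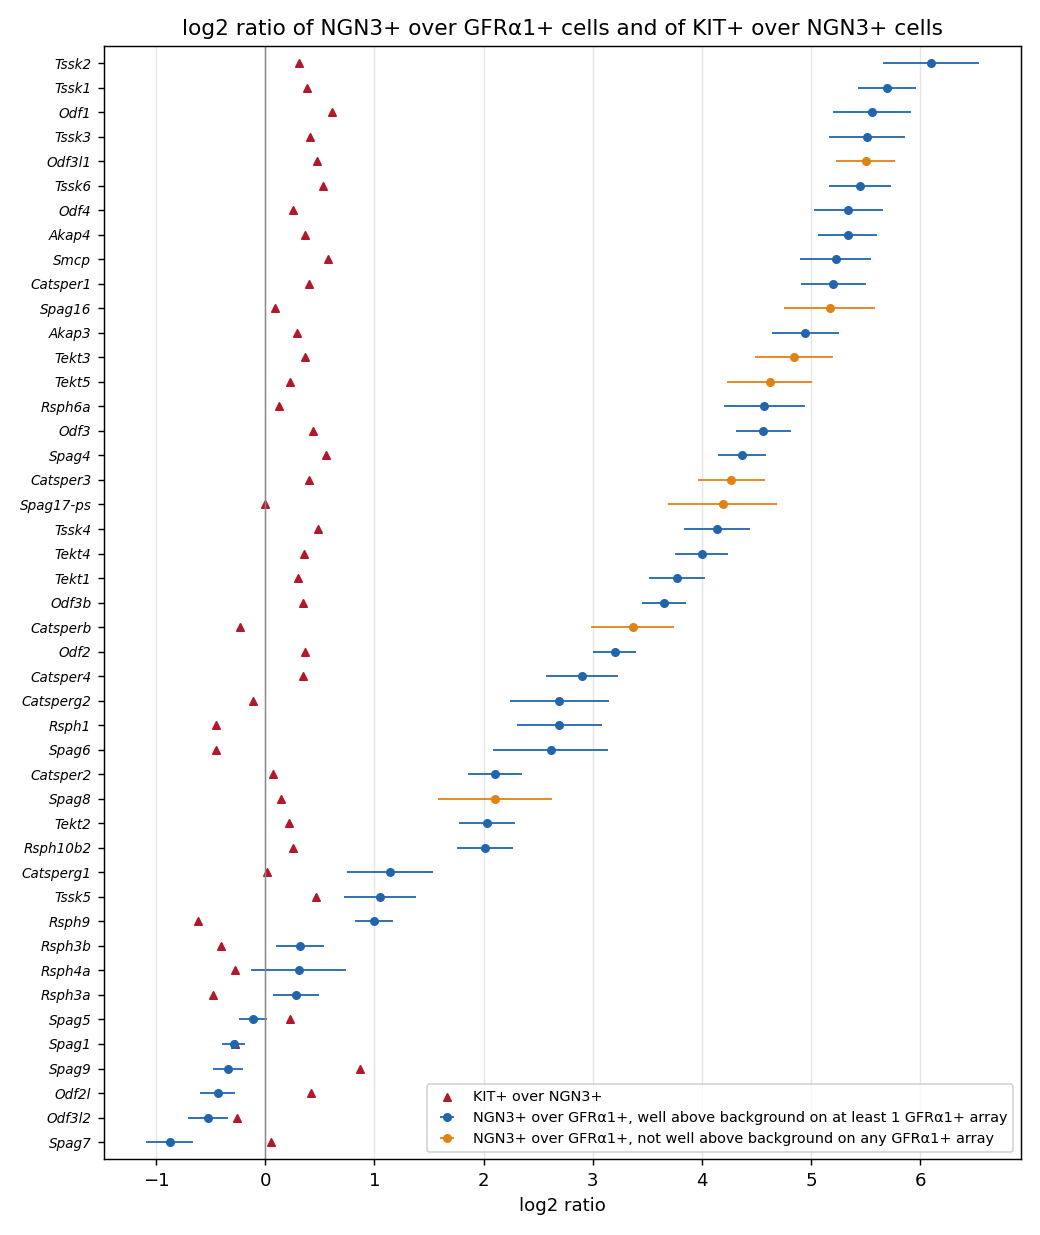
log2 ratio of NGN3+ over GFRα1+ cells for each of the 45 genes tested (circles, with bars of 1 SE; orange marks genes not well above background on any GFRα1+ array, whose ratios are not bounds) and of KIT+ over NGN3+ cells (triangles), on the horizontal axis. The circles run from −0.88 for Spag7 to 6.10 for Tssk2, while the triangles stay between −0.62 and 0.87.

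The 4 genes lower in NGN3+ than in GFRα1+ cells were Spag7, Odf3l2, Odf2l and Spag1. Spag7 had a log2 ratio of −0.88 ± 0.22 (SE, limma adjusted p = 0.009), Odf3l2 of −0.53 ± 0.18 (adjusted p = 0.034), Odf2l of −0.44 ± 0.16 (adjusted p = 0.043) and Spag1 of −0.29 ± 0.11 (adjusted p = 0.047). Odf2l stood at −1.72, −1.51 and −1.38 in NGN3+ cells, against −1.24, −1.18 and −0.88 in GFRα1+ cells. Spag1 stood at 1.06, 0.95 and 1.18 in NGN3+ cells, against 1.28, 1.35 and 1.44 in GFRα1+ cells. The arrays of the groups did not overlap in any of the 4 genes, although the nearest Odf3l2 arrays both round to −2.54. Left out in turn, GFRα1+ replicates 1 and 2 and NGN3+ replicate 2 each left 1 gene called, GFRα1+ replicate 3 and NGN3+ replicate 1 left 2, and NGN3+ replicate 3 left 4. Scaled to the spiked-in RNA, the ratio of Spag7 was 1.24 and those of Odf3l2, Odf2l and Spag1 were 1.59, 1.68 and 1.83, so that none of these falls kept its direction. Within the second slide the ratio of Spag7 was −0.58 (adjusted p = 0.173).

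Between KIT+ and NGN3+ cells, which share the reporter line and lay on the same slide, flagellum genes were close. Of 45 genes, 1 was higher in KIT+ cells (2.22%, against 17.5% of all 24120 genes tested) and 1 was lower (2.22%, against 16.9%), and the median log2 ratio was 0.29, against 0.05 over all genes. The other 43 ratios lay between −0.48 and 0.61, with standard errors of 0.11 to 0.53, so that differences of this size were mostly not resolved with 3 arrays a group. No gene changed by over 2-fold. The pair that passed was singled out after its values were seen. Spag9 was higher in KIT+ cells, with a log2 ratio of 0.87 ± 0.14 (SE, limma adjusted p = 0.0015), and its groups did not overlap. Rsph9, a spoke head gene, stood at 3.01, 2.42 and 2.85 in KIT+ cells, against 3.22, 3.50 and 3.43 in NGN3+ cells, a log2 ratio of −0.62 ± 0.17 (adjusted p = 0.024). That call was lost without NGN3+ replicate 2 (adjusted p = 0.087) or 3 (0.065) and without KIT+ replicate 2 (0.069) or 3 (0.052).

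The arrays of a group did not vary independently from gene to gene. Among NGN3+ arrays, replicate 1 was the lowest for 40 of 45 genes. Among KIT+ arrays, replicate 1 was the highest for 39 and replicate 2 the lowest for 39. The median share of the whole testes level was 6.65%, 11.7% and 11.8% on the NGN3+ arrays and 14.5%, 8.57% and 12.4% on the KIT+ arrays, so that the 2 groups overlapped array by array. It was 0.727%, 0.699% and 0.746% on the GFRα1+ arrays. NGN3+ replicate 3 was over 0.3 (log2) above replicate 2 for 11 genes, which were Rsph1, Rsph3a, Rsph3b, Rsph6a, Spag5, Spag6, Odf3l2, Catsper2, Catsperb, Catsperg1 and Catsperg2. Replicate 2 was over 0.3 above replicate 3 for 10, which were Odf1, Odf3l1, Smcp, Rsph4a, Tssk3, Tssk4, Tssk5, Tssk6, Catsper3 and Catsper4, and the other 24 genes lay within 0.3, so that the Odf, Rsph and Catsper families were split. The KIT+ over NGN3+ log2 ratio had a median of −0.24 over those 11 genes (−0.48 to 0.23) and of 0.47 over those 10 genes (−0.28 to 0.61). The NGN3+ arrays that chose these genes also enter the ratio, and it is given with no test.

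A list of spermatid genes outside the name rule moved with the flagellum genes. Whether some of their products also lie in the tail was not checked. This list of 34 measured genes includes the protamine and transition protein genes. In NGN3+ cells 34 of 34 were lower than in whole testes (median share 8.87%) and 34 of 34 were above GFRα1+ cells, at a median log2 ratio of 5.37. Over all genes tested, 39.6% were lower in NGN3+ cells than in whole testes. Against GFRα1+ cells 20.2% of all genes were higher and 36.2% lower. Every NGN3+ and KIT+ array measured all 34 above background. Every GFRα1+ array did so for 28 of them, and no GFRα1+ array for 5. Those not measured on every GFRα1+ array passed the filter through NGN3+ cells alone, which favours a higher call. The summed level of the 34 genes, in multiples of the 75th percentile, was 33.0 to 71.4 on GFRα1+ arrays, 1509 to 1918 on NGN3+ arrays, 1839 to 2351 on KIT+ arrays and 7747 to 9389 on whole testes arrays. On single arrays their median share was 6.54%, 11.6% and 9.12% in NGN3+ cells and 14.6%, 9.13% and 12.6% in KIT+ cells, with the same lowest NGN3+ array and the same highest and lowest KIT+ arrays as the flagellum genes. Markers of peritubular myoid cells also differed, with 8 of 8 called higher in NGN3+ cells and summed levels of 17.7 to 31.9 there, against 4.27 to 5.26 in GFRα1+ cells. Their median share of the whole testes level was 28.5% in NGN3+ cells and 12.1% in KIT+ cells. Of these 8, 6 were called lower in KIT+ than in NGN3+ cells, against 16.9% of all genes tested. Of 14 Sertoli cell markers tested, 9 were called higher and 1 lower in NGN3+ cells, and their summed levels were 53.7 to 71.3 there, against 71.5 to 83.7 in GFRα1+ cells. The median share of the whole testes level in NGN3+ cells was 62.0% for endothelial markers, with 1 of 6 called higher and 2 lower than in GFRα1+ cells, 12.6% for Sertoli cell markers, and 2.89% to 19.6% for red blood cell, Leydig cell and leukocyte markers. The part of other cells in the flagellum results was not tested.

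**Figure D4:**
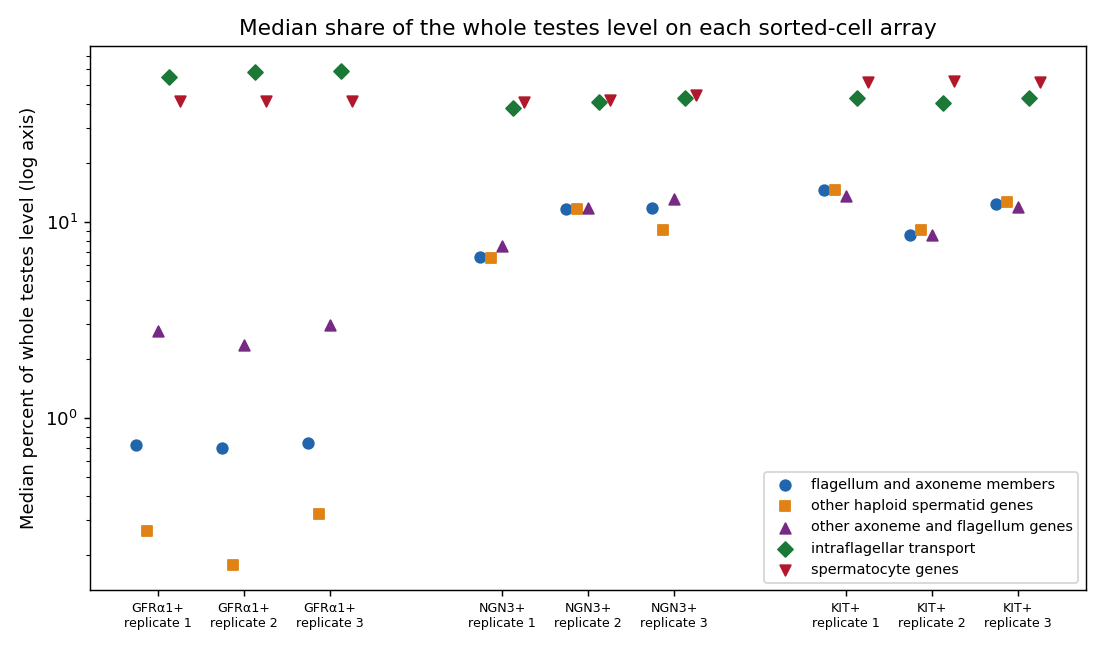
Median level as a percentage of whole testes (vertical log axis) on each of the 9 sorted-cell arrays, for the flagellum and axoneme genes and 4 other lists. The flagellum genes and the other spermatid genes lie at 6.54% to 14.6% on the NGN3+ and KIT+ arrays and below 1% on the GFRα1+ arrays, while spermatocyte and intraflagellar transport genes lie between 38.3% and 59.1% on all 9.

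Other genes of the axoneme and of cilia were compared in the same way. Of 65 tested genes of the axoneme and flagellum outside the name rule, 65 were lower in NGN3+ cells than in whole testes, against 39.6% of all genes tested. Their median share was 10.5%. In NGN3+ cells 50 of 64 exceeded their GFRα1+ level (against 20.2% of all genes) and 5 were below it (against 36.2%). The genes of intraflagellar transport, the motor-driven traffic that builds cilia in many cell types, stood at a median of 54.8% of whole testes in GFRα1+, 41.3% in NGN3+ and 39.8% in KIT+ cells, and NGN3+ cells exceeded GFRα1+ cells in 2 of 28 and were below them in 9, the second count near the 36.2% of all genes called lower. Spermatocyte genes stood at 41.8% in GFRα1+, 42.7% in NGN3+ and 52.9% in KIT+ cells. In NGN3+ cells 11 of 30 were above their GFRα1+ level, against 20.2% of all genes, and 9 were below it, again near 36.2%. Among 16 tested transcription factors of cilia and spermatids, the limma fit called 8 higher in NGN3+ cells against GFRα1+ cells and 0 lower. Over all genes 20.2% were called higher and 36.2% lower. Crem had a log2 ratio of 3.1. Rfx2 and Rfx4 were not well above background on any GFRα1+ array, and were at least 5.35-fold and 7.40-fold higher in NGN3+ cells. Foxj1 had a log2 ratio of 1.03 that did not pass (adjusted p = 0.076).

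For some genes a second probe gave another picture. Odf2 encodes both a protein of the outer dense fibres and a centrosomal protein of dividing cells, and its 2 probes bind different parts of the gene on the plus strand (mm9). The first 30 bases of each are shown because the levels differ.
Odf2, brighter probe, chr2:29778000-29778059: cgatttctgaaaggagtgagctatcatcag
Odf2, other probe, chr2:29786439-29786498: aactttacatacagagtctgcttcctttcc
The brighter probe stood at 3.45, 3.44 and 3.68 in GFRα1+ cells, 6.36, 6.82 and 7.0 in NGN3+ cells, 7.30, 6.79 and 7.18 in KIT+ cells, and 9.45, 9.77 and 9.72 in whole testes. The other probe stood at 0.52, 0.28 and 0.50 in GFRα1+ cells, −0.23, −0.08 and 0.28 in NGN3+ cells, 0.78, 0.73 and 0.87 in KIT+ cells, and 0.25, 0.60 and 0.77 in whole testes. The brighter probe thus separated all groups but NGN3+ and KIT+ cells, and the other stayed between −0.23 and 0.87. Its NGN3+ over GFRα1+ log2 ratio was −0.44 (limma over every probe, adjusted p = 0.031), against 3.20 for the brighter probe, and its KIT+ over NGN3+ ratio was 0.80 (adjusted p = 0.0033), against 0.36. A dimmer Catsper2 probe had an NGN3+ share of 41.7%, against 10.5% for the brighter probe, and an NGN3+ over GFRα1+ ratio of 0.29 (adjusted p = 0.14), against 2.10. The other Catsperg2 probe had an NGN3+ share of 18.2%, against 8.07%, and an NGN3+ over GFRα1+ ratio of 0.53 (adjusted p = 0.023), against 2.70. The other Spag16 probe, well above background on 1 GFRα1+ array, had an NGN3+ over GFRα1+ ratio of 2.06 (adjusted p = 0.0038). A dimmer Rsph3a probe was not well above background on any KIT+ array. Its fitted KIT+ over NGN3+ log2 ratio was −1.38 (limma over every probe, adjusted p = 0.0074). With the KIT+ arrays at their bound, its KIT+ level was at least 2.23-fold lower than in NGN3+ cells, a bound with no test. The other Spag17 probe was well above background on 1 KIT+ array only.

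**Figure D5:**
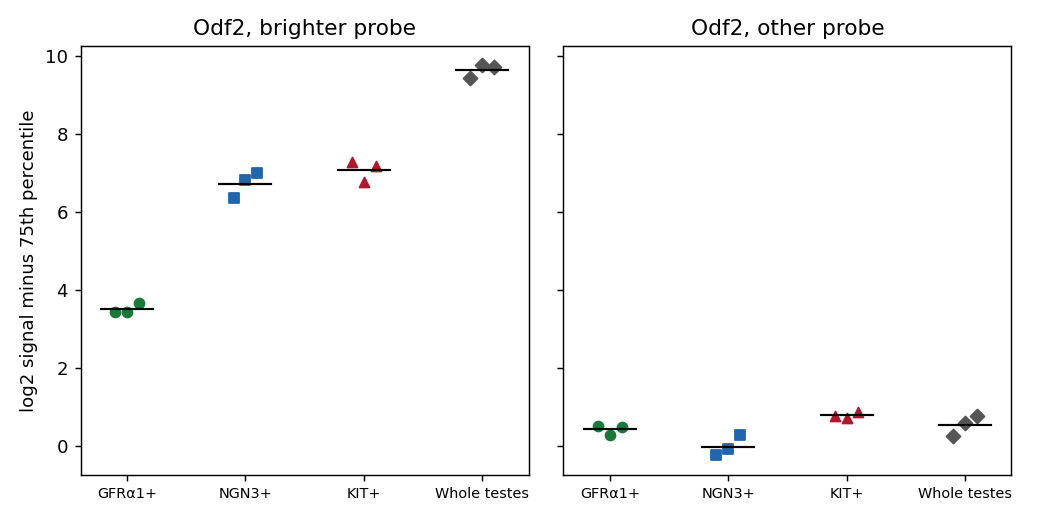
Levels of the 2 Odf2 probes on each array by group (log2 processed signal minus the 75th percentile of the array, vertical axis), with black bars at the group means of 3 arrays. The brighter probe climbs with group means of 3.53, 6.73, 7.09 and 9.65 in GFRα1+, NGN3+ and KIT+ cells and whole testes, while the other probe stays between −0.01 and 0.79.

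Genes of the same families that carry an older name on the arrays were added after the levels had been seen. These were 20 genes, mostly heavy and intermediate chains of axonemal dynein, the motors that bend the axoneme. In NGN3+ cells 16 of 18 were lower than in whole testes (against 39.6% of all genes tested) and 1 was higher (against 44.1%). The median share was 11.7%. Against GFRα1+ cells 13 of 18 were higher (against 20.2% of all genes tested) and 1 was lower (against 36.2%), with a median log2 ratio of 1.55. Dnah17 (Dnahc17 on the arrays), an outer arm chain of the flagellum, had shares of 0.654% in GFRα1+, 9.37% in NGN3+ and 8.24% in KIT+ cells. Dnah8 and Dnah10 had NGN3+ shares of 14.0% and 11.1% and GFRα1+ shares of 7.56% and 5.57%. Dnah5, the outer arm chain of airway cilia, behaved otherwise. It was well above background on all GFRα1+ and NGN3+ arrays, on 1 whole testes array and on no KIT+ array, and its NGN3+ over GFRα1+ log2 ratio was −1.98 (limma adjusted p = 0.00069). The median share over the enlarged set was 1.07% in GFRα1+ cells.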

How the data were processed

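RNA of 3 samples each of GFRα1+, NGN3+ and KIT+ spermatogonia and of whole testes was hybridised to Agilent 1-colour arrays. The authors extracted spot values with Agilent Feature Extraction (10.7.1.1 or 10.7.3.1 in the file headers) and deposited each spot's intensity after background subtraction, with flags. They also deposited a table of log2 values, which was the log2 intensity minus each array's 75th percentile for 99.8% to 99.9% of probes (within 0.01), with no centring of genes. The medians of its columns by replicate were −3.85, −3.85 and −3.67 in GFRα1+ cells, −3.57, −3.55 and −3.49 in NGN3+ cells, −3.50, −3.64 and −3.62 in KIT+ cells, with −3.46, −3.45 and −3.49 in whole testes. It served as an alternative.

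Log2 intensities had each array's 75th percentile (318 to 675) subtracted, without control spots and the 103 to 161 outlier spots per array. No spot was saturated. Gene names were updated through RefSeq (GRCm38.p6), for 31006 of 55681 probes, and the probe with the highest mean stood for its gene. Comparisons used limma 3.58.1 in R 4.3.3 with Benjamini-Hochberg adjustment at 0.05, over 12 arrays where whole testes were compared and over 9 arrays otherwise. Tests covered genes whose probe exceeded background, by the software's flag, on every array of 1 or both groups. Shares are 2 to the power of the log2 ratio over whole testes, with 95% intervals from limma. Bounds set the dimmer group, per array, to the higher of its own value and the lowest level well above background. The paper used a t-test. The fit was also run on simulated data for the comparison of NGN3+ with GFRα1+ cells (23808 genes). There it recovered 84.0% of genes changed by 2 (log2) and 56.0% to 58.0% of those changed by 1, with 7 false calls. How far these rates hold for the measured arrays was not tested. The measured arrays of a group did not vary independently from gene to gene.

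The text names Akap3, Akap4, Smcp and Odf1, the highest and lowest NGN3+ share in each family, members above 50% of whole testes in NGN3+ or KIT+ cells, and members that fell between NGN3+ and GFRα1+ cells or changed over 2-fold between KIT+ and NGN3+ cells. Other genes are given as examples. The members and lists were chosen with earlier results of these data known. Replicates were separate RNA samples, and their number limits the precision: with 3 arrays against 3, the smallest exact permutation p is 0.1. The first slide held GFRα1+ replicates 1 and 2 and whole testes replicate 1, the second GFRα1+ replicate 3 and every NGN3+ and KIT+ array, and the third the other whole testes arrays, so that whole testes and NGN3+ or KIT+ cells never shared a slide. Alternatives were other scalings, filters, probe choices, blocks and left-out arrays.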

Additional observations from a re-analysis of the deposited data

How the results depend on the processing

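Left out in turn, the arrays left 42 genes lower and 1 higher in NGN3+ cells than in whole testes, 43 and 1 in KIT+ cells and 42 and 1 in GFRα1+ cells. Between NGN3+ and GFRα1+ cells they left 34 to 37 higher and 1 to 4 lower, and between KIT+ and NGN3+ cells 1 to 2 higher and 0 to 2 lower. The median share ranged from 0.610% to 0.720% in GFRα1+ cells, 8.70% to 11.6% in NGN3+ cells and 10.5% to 13.4% in KIT+ cells. The GFRα1+ median share was 0.728% under quantile normalization, 0.485% with the percentile of only the probes detected on all arrays, 2.13% under normexp background correction, 0.511% scaled to the spiked-in RNA, 1.07% with older names added, 1.03% over every probe, 0.726% with a block for slide and 0.776% on the first slide alone. It also rose with the filter on dim probes changed. As a log2 ratio over whole testes, the GFRα1+ median was −7.28 in the main fit. It was −6.64 with no such filter, and −6.33 over the 31 genes well above background on every array of both groups. Scaled to the spiked-in RNA, the median shares were 32.9% in NGN3+ and 43.2% in KIT+ cells, with 4 and 6 genes higher than in whole testes. With older names added, 2 genes were higher than in whole testes in each of GFRα1+, NGN3+ and KIT+ cells. Both alternatives were chosen after seeing the data. Restricted to the 31 genes well above background on every array of both groups, the NGN3+ against GFRα1+ comparison had 23 higher and 5 lower. Over all 19476 genes filtered in this way it had 2649 higher and 8822 lower.

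Genes lower in NGN3+ than in GFRα1+ cells numbered 1 with the percentile of only the probes detected on all arrays, 0 scaled to the spiked-in RNA, 1 with no filter on dim probes, 2 with only the compared groups, 2 with slide as a block, 1 with the methods' t-test after adjustment and 0 within the second slide. Genes higher in KIT+ than in NGN3+ cells numbered 2 under quantile normalization, 3 under normexp and 2 over every probe, and genes lower there 2 under quantile normalization, 2 with that percentile, 0 scaled to the spiked-in RNA, 2 with older names, 3 over every probe and 0 with the methods' t-test. The cause was not tested. Scaling to the spiked-in RNA also turned the log2 ratio over whole testes of Spag5 (1.06 in NGN3+ and 1.38 in KIT+ cells), Odf2l (0.22 and 0.72), Spag1 (0.62 and 0.43), Spag9 (0.94 in KIT+ cells) and Odf3l2 (1.29 in KIT+ cells), and the NGN3+ over GFRα1+ ratio of Odf3l2 (1.59), Spag7 (1.24), Odf2l (1.68) and Spag1 (1.83). For the 78 called ratios of named genes, 1446 of the recomputed values kept their direction and call, 59 kept the direction only and the 12 above turned.

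Replicate numbers are shared between groups, but the deviations of same-numbered arrays correlated by over 0.1 in 1 pair only, KIT+ and NGN3+ replicates 3 (0.24), against −0.39 and −0.58 for replicates 1 and 2 there. With the replicate number as a block, the count was 36 higher and 2 lower for NGN3+ against GFRα1+ cells and 2 higher and 1 lower for KIT+ against NGN3+ cells, and the counts against whole testes did not move. For genes near background, the number of arrays and the distance of the signal from background limit what could be seen in GFRα1+ cells.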
